A study of Mus musculus with 12 samples.

Results

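The genes described here carry out DNA replication and the synthesis of its nucleotides. They are 44 genes listed by name for their known function, in a list drawn up with earlier results of these data known, and a gene was represented by its brightest probe set that names no other gene. Of the 44, 43 had such a probe set and all 43 passed the filter on dim probe sets, among 11325 genes that passed and 18193 genes named on the array. Chaf1a was matched to no probe set in the annotation used and was not analysed here. Expression was measured with Affymetrix arrays in splenocytes of DBA/2 mice, 10 weeks old, after 9 days of coculture with KLN-205KD cells in the presence of interleukin-2. KLN-205 is a squamous carcinoma line from the lung of a DBA/2 mouse, and KLN-205KD carries a knockdown of SEMA3A, a secreted semaphorin. All 4 groups had these knockdown cells. The control group had nothing else. The SEMA6A group had tumour cells made to overexpress SEMA6A, which sits in the membrane, the SEMA3A group was given purified SEMA3A protein at 10 µg/mL, and the last group had both, with 3 arrays in each group and 12 in all. All tumour cells derive from a single line, and whether a group's arrays are separate cultures or mice is not given in the labels. P-values therefore measure only the spread between these samples, which may be technical.

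Replication starts where the origin recognition complex sits on DNA. There CDC6 and CDT1 load the MCM helicase, and the kinase CDC7 with its partner DBF4 activates it with the help of CDC45 and the GINS complex. DNA polymerase alpha and primase lay down primers, polymerases delta and epsilon extend them on the clamp PCNA, and FEN1 and LIG1 join the lagging strand. Ribonucleotide reductase and thymidylate enzymes supply the nucleotides. Most of these genes are transcribed around S phase under E2F factors, and T cells that divide in response to antigen and interleukin-2 express them strongly.

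Because S phase genes are a textbook class of E2F targets, promoters of the members were searched for E2F-type letters. The letters were TTTCCCGC, TTTGGCGC, TTTCGCGC and TTTGCCGC on either strand, in the stretch from 250 bases before to 50 bases after each RefSeq start in assembly GRCm38.p6. Promoters were given for 38 of the 44 genes, 49 in all, and 13 of these 49 (26.5%) held the letters, against 2.26% of all 32851 promoters of that length. The genes with the letters were Cdc6, Cdt1, Dnmt1, Gins3, Hells, Lig1, Orc1, Orc3, Pola1, Pold1, Pole2, Rfc3 and Uhrf1. CCAAT, on either strand, was in 46.9% of the members' promoters and 37.4% of all, and TTTGAA, on either strand, in 16.3% and 17.9%. Stretches around the letters are shown for Cdc6, Gins3, Hells and Pola1. In these 4 the match lies wholly before the start and the interaction below had an unadjusted p under 0.05 (limma). They run 5′ to 3′ along the gene's strand, with the match in capitals. The Cdc6 stretch is chr11:98907967-98908066 on the plus strand and its match starts 138 bases before the start of the gene. For Gins3 it is chr8:95633472-95633558 on the plus strand, 41 bases before, and for Hells chr19:38930882-38930981 on the plus strand, 62 bases before. For Pola1 it is chrX:93632240-93632339 on the minus strand, 138 bases before. The letters describe the sequence and are no measure of binding.
Cdc6: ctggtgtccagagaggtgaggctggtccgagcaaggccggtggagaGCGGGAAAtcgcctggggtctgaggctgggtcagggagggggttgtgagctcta
Gins3: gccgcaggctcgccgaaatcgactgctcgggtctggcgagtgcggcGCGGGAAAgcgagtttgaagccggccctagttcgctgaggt
Hells: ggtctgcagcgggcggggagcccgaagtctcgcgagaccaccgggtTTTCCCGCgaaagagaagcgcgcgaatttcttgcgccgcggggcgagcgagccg
Pola1: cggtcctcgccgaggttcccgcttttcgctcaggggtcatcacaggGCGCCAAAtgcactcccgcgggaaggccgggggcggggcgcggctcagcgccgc

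The cultures had RNA of T cell markers and of genes used as NK cell markers. All 10 T cell markers and all 4 NK cell markers present in the annotation passed the filter, as did the leukocyte gene Ptprc, while 1 of 5 B cell and 0 of 3 erythroid markers did. Of the NK cell markers Ncr1 was dim, with signals of 40 to 180 over the 12 arrays, and Klrd1, Klrk1 and Nkg7 were brighter. Whether NK cells were present was not tested. Of 7 macrophage markers 4 passed, namely Cd14, Cd68, Csf1r and Fcgr3, and Adgre1, Itgam and Lyz2 lay below the filter. Over all 7 the summed signal was 951 to 1131 in the control group, 973 to 1836 with SEMA6A, 1359 to 2251 with SEMA3A and 1135 to 1277 with both. Of 12 squamous tumour cell markers 9 passed, not Krt14, Lama3 and Trp63, and the sums over the 12 were 2679 to 3187, 2630 to 3857, 2544 to 3025 and 2743 to 3138 in the same order of groups. Epcam, at 610 to 1132 over all arrays, and Cdh1, at 1048 to 1869, were the brightest of them. No other of these markers exceeded 302 on any array, and the keratin gene Krt5 was at 34 to 78. The median signal of an array was 42.5 to 53.5. The second SEMA6A array stood apart, with a Gapdh 3′/5′ ratio of 1.22 against 0.767 to 0.818 on the other 11, and with Cd8a at 496 against 1968 to 4231. A difference or interaction in square brackets is the same value without that array, given where leaving it out moved the value by over 1.5 times and by over 0.05. Levels are compared within a gene only, since probe sets differ in brightness for the same amount of RNA.

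**Figure D1:**
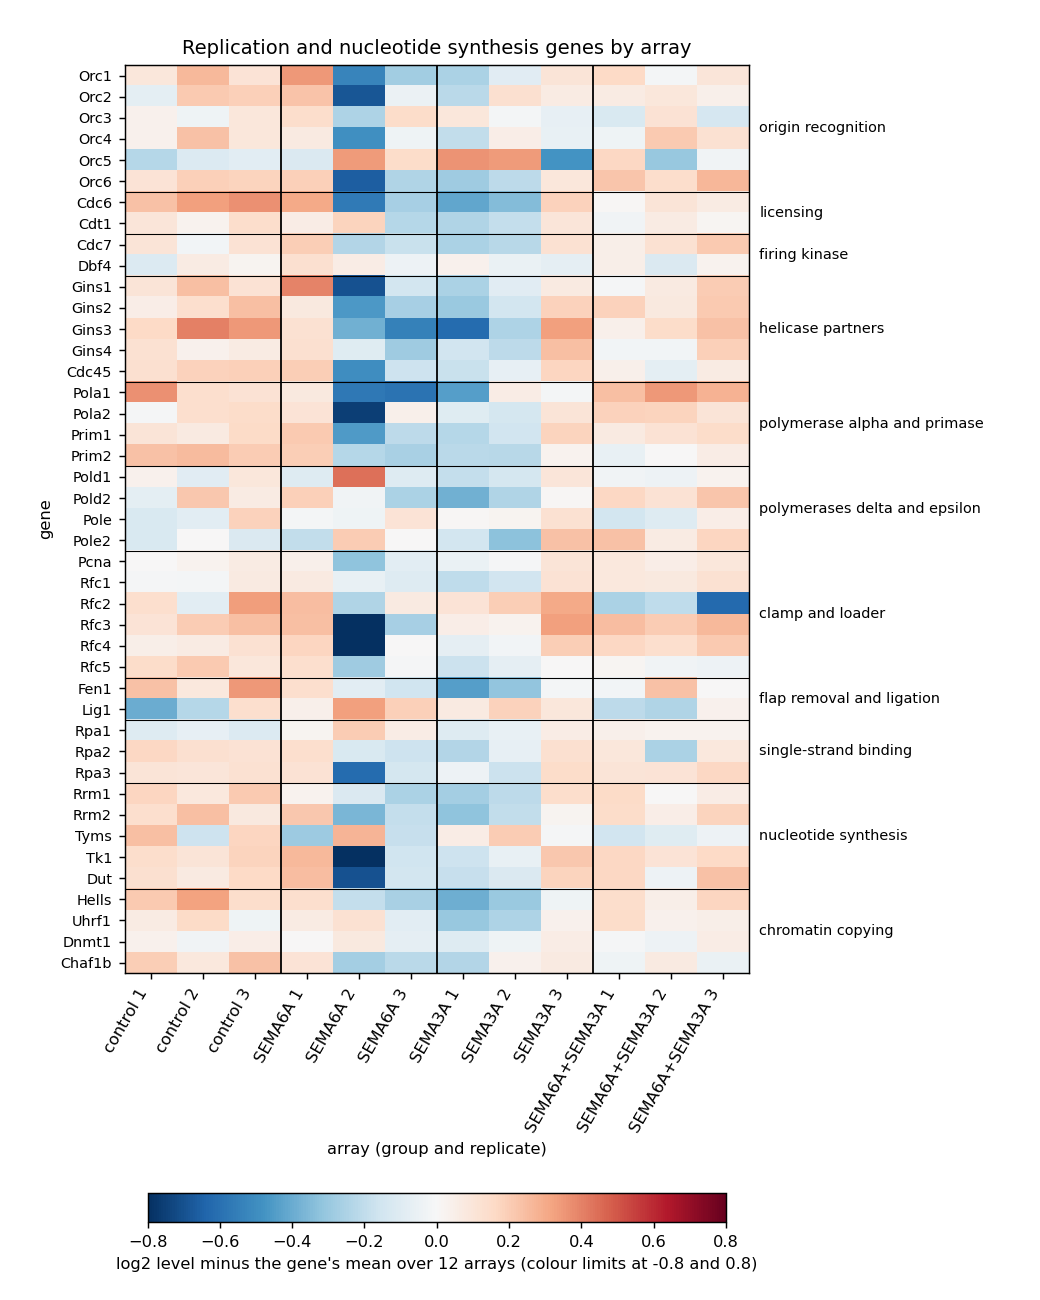
Heat map of the 43 genes (vertical axis, by role) on the 12 arrays (horizontal axis, group and replicate), coloured by the log2 level minus the gene's mean over the arrays, with colour limits at -0.8 and 0.8. Blue columns, the lower levels, are the second and the third SEMA6A arrays and the first and second SEMA3A arrays, while the control arrays and those with both factors are mostly pale red.

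The replication genes were lower, as a group, on some arrays with a single factor and close to the control level with both factors. As the median over the 43 genes of the log2 level minus the gene's mean over 12 arrays, the control arrays were at 0.10, 0.09 and 0.12 and the arrays with both factors at 0.07, 0.06 and 0.09. The SEMA6A arrays were at 0.13, -0.25 and -0.16, and the SEMA3A arrays at -0.20, -0.09 and 0.10. Thus the first SEMA6A array and the third SEMA3A array lay with the control arrays, and the lower group means, -0.09 ± 0.20 and -0.06 ± 0.15 (SD, n = 3) against 0.10 ± 0.02, come from 2 arrays of each group. The number of genes below their own mean was 4 to 11 of 43 on the control arrays and 6 to 14 with both factors. It was 5, 33 and 34 on the SEMA6A arrays and 35, 33 and 8 on the SEMA3A arrays. In these bulk samples fewer dividing cells and less RNA per cell cannot be told apart.

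Other measures moved with these values from array to array. The summed signal of the macrophage markers was 973, 1836 and 1635 on the SEMA6A arrays and 2251, 1762 and 1359 on the SEMA3A arrays, highest where the replication genes were lowest within SEMA3A and higher on the second and the third SEMA6A arrays than on the first. Fcgr3, an Fc receptor gene that NK cells express too, carried most of that spread, at 414, 1026 and 967 with SEMA6A and 1404, 1082 and 759 with SEMA3A. Over all 12 arrays Csf1r lay between 73.8 and 136, Cd14 between 163 and 318 and Cd68 between 185 and 347. The 3′/5′ ratio of the transferrin receptor control probe sets, a measure of RNA length, was 8.39, 35.7 and 23.3 with SEMA6A and 17.2, 17.6 and 18.1 with SEMA3A, against 6.82 to 9.34 in the control group and 5.93 to 12.2 with both factors. It was thus as high on the third SEMA3A array, where the replication genes were at the control level, as on the first. The other control ratios were not raised with SEMA3A. There Gapdh was at 0.771 to 0.796, Actb at 1.05 on each array and pyruvate carboxylase at 6.66, 6.90 and 5.78. Pyruvate carboxylase was at 6.86, 15.5 and 10.3 with SEMA6A, against 7.01 to 8.26 in the control group and 4.36 to 5.81 with both factors. The part of these measures in the results was not tested. The 2 proliferation markers differed. Mki67 was not lower on those arrays, at 8717, 9245 and 9759 in the control group and 10433, 11954 and 9928 with SEMA6A. It was at 10204, 10664 and 9194 with SEMA3A and at 9308, 9308 and 9492 with both. Top2a, the topoisomerase of late S phase and mitosis, was at 12818, 12613 and 13854 in the control group and 13760, 10638 and 12499 with SEMA6A. It was at 11392, 12861 and 13547 with SEMA3A and at 12814, 13157 and 13910 with both, so its lowest signals were on the second SEMA6A and the first SEMA3A array. The interaction was -0.29 ± 0.11 for Mki67 and 0.17 ± 0.13 for Top2a.

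**Figure D2:**
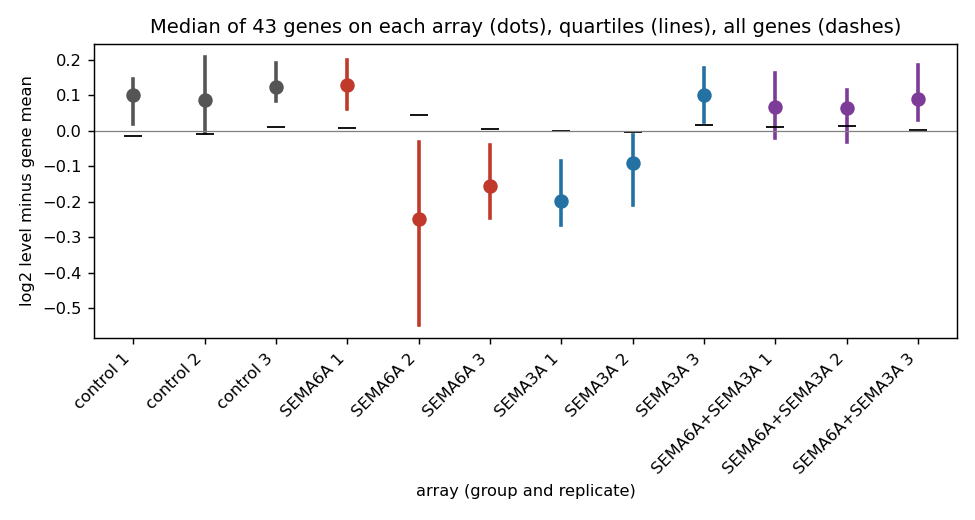
For each of the 12 arrays (horizontal axis), the median over the 43 genes of the log2 level minus the gene's own mean (vertical axis), with the quartiles over genes as bars. The second and the third SEMA6A arrays, at -0.25 and -0.16, and the first and second SEMA3A arrays, at -0.20 and -0.09, lie below 0, and the other 8 lie between 0.06 and 0.13.

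The 6 comparisons fitted over all genes with limma were each group with an added factor against the control, both factors against each factor alone, and the interaction. SEMA6A alone was not set against SEMA3A alone. The interaction is the log2 difference made by SEMA6A where SEMA3A is present minus that made where it is absent, so it is above 0 where 2 factors together leave a gene higher than the single differences add up to. The comparisons share arrays, so their values are not independent of each other. No member passed the adjusted threshold of 0.05 in any comparison, and neither did any of the 11325 genes (0%). The counts at an unadjusted p under 0.05 were 1181 genes in SEMA6A against control, 989 in SEMA3A, 466 with both, 1273 in both against SEMA3A, 1304 in both against SEMA6A and 2037 in the interaction. Differences below are log2(signal + 16) after quantile normalization, given with their standard error, and are values that did not pass. Signals are the deposited ones.

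Of the 6 comparisons the interaction had the median of the replication genes furthest from 0, on a wider scale than the others. It combines 4 group means, and its quartiles over all genes were -0.26 and 0.24, against -0.13 and 0.17 for SEMA6A against control. Its median over the 43 genes was 0.38, against -0.00 over all genes tested, and 34 of 43 values were above 0, against 49.5% of all genes, and 9 below, against 50.5%. Of the members 14 were above 0 at an unadjusted p under 0.05, against a background of 7.82%, and 2, Lig1 and Rfc2, were below 0, against 10.2%. Those above were Cdc6, Fen1, Gins2, Gins3, Hells, Orc4, Orc6, Pola1, Pold2, Prim1, Prim2, Rpa3, Rrm1 and Rrm2, with adjusted p-values of 0.197 to 0.275 (limma, Benjamini-Hochberg). Role by role, the median was 0.48 for polymerase alpha and primase, 0.48 for CDC45 and GINS, 0.48 for nucleotide synthesis, 0.48 for licensing and 0.40 for origin recognition. It was 0.31 for chromatin copying, 0.24 for the clamp and its loader, 0.22 for single-strand binding and 0.17 for the firing kinase. For polymerases delta and epsilon it was 0.07, and for flap removal and ligation -0.0094. Values of at most 0.05 from 0 were those of Dbf4, Dnmt1, Orc3, Pold1 and Tyms. Without the second SEMA6A array the median was 0.24, 36 of 43 values were above 0 and 19 had moved by over 1.5 times and 0.05, and without the first the median was 0.54. Without the first SEMA6A array 27 members were above 0 at an unadjusted p under 0.05, against 13.9% of all genes in that fit. There 19 passed the adjusted threshold (11.4% of all genes). Without the third SEMA3A array 4 passed it (Fen1, Gins3, Hells and Rrm1, 2.51% of all genes). With array weights 17 passed it (14% of all genes) and 27 were above 0 at an unadjusted p under 0.05, against 15.2% of all genes.

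**Figure D3:**
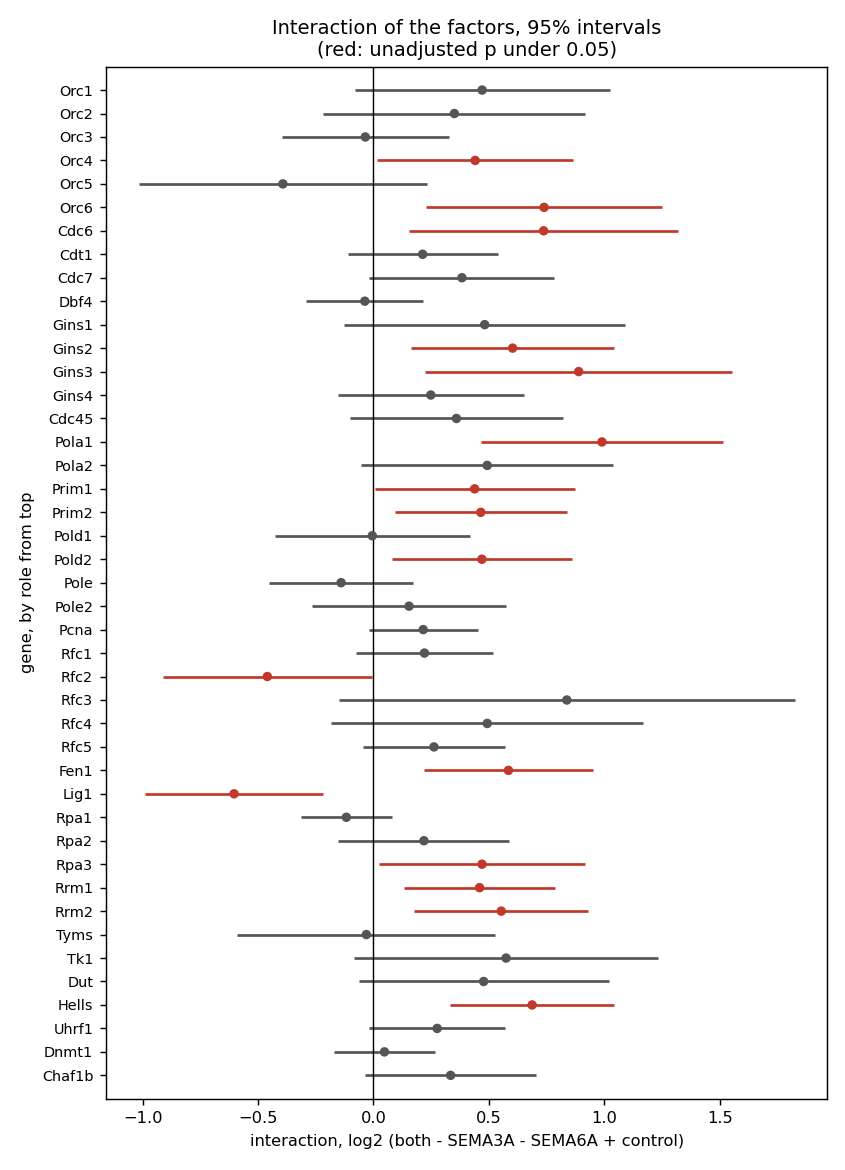
Interaction of SEMA6A and SEMA3A for the 43 genes (one per line, ordered by role from the top), as a log2 value with its 95% confidence interval on the horizontal axis. Pola1, at 0.99, is highest and Lig1, at -0.60, lowest, and 34 of 43 points lie above 0.

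Among the origin genes, Orc6, a subunit of the complex, had the widest difference. Its signals were 2324, 2472 and 2452 in the control group and 2500, 2340 and 2592 with both factors, against 2447, 1362 and 1808 with SEMA6A and 1743, 1847 and 2280 with SEMA3A. All 3 SEMA3A arrays lay below all control arrays and below all arrays with both factors, while the first SEMA6A array lay within the control range. The difference was -0.39 ± 0.17 [-0.18] for SEMA6A, -0.29 ± 0.17 for SEMA3A and 0.05 ± 0.17 for both against control, and the interaction was 0.74 ± 0.24. Orc1, the ATPase subunit that is degraded and remade with the cycle, had an interaction of 0.47 ± 0.26 [0.28]. Orc2 and Orc4, core subunits present through the cycle, were at 0.35 ± 0.26 [0.092] and 0.44 ± 0.20 [0.27], and Orc3, their partner, at -0.04 ± 0.17 [-0.17]. Orc5, another core subunit, was on the other side, at -0.39 ± 0.29, with signals of 900, 892 and 484 on the SEMA3A arrays. These 3 arrays include the lowest and the highest Orc5 signal of all 12.

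Licensing genes differed in size. Cdc6, which loads the helicase with ORC, was at 2503, 2687 and 2787 in the control group and 2133, 2276 and 2229 with both factors, against 2633, 1449 and 1766 with SEMA6A and 1603, 1670 and 2425 with SEMA3A. All SEMA3A arrays and all arrays with both factors lay below the control arrays, whereas the first SEMA6A array lay among them. Its differences against control were -0.49 ± 0.19 [-0.29] for SEMA6A, -0.50 ± 0.19 for SEMA3A and -0.25 ± 0.19 for both, with an interaction of 0.74 ± 0.27. Cdt1, its partner in helicase loading, was at 9474, 9007 and 10070 in the control group and 9007, 9523 and 9279 with both factors, against 9595, 10114 and 7643 with SEMA6A and 7664, 7892 and 9859 with SEMA3A. The 4 groups of Cdt1 overlapped, and its interaction was 0.21 ± 0.15. The subunits of the firing kinase differed. Dbf4, which activates CDC7, was at 3840, 4387 and 4308 in the control group and 4316, 3856 and 4271 with both factors, against 4628, 4351 and 4066 with SEMA6A and 4296, 3966 and 4037 with SEMA3A. Its groups overlapped in every comparison and its interaction was -0.04 ± 0.12, while Cdc7, the catalytic subunit, was at 0.38 ± 0.19.

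CDC45 and GINS complete the working helicase, and all 5 of these genes were below 0 for each factor alone and above 0 in the interaction. Gins1, the brightest of them over all arrays, was at 2330, 2557 and 2348 in the control group and 2131, 2247 and 2497 with both factors, against 2870, 1333 and 1956 with SEMA6A and 1797, 2011 and 2270 with SEMA3A. The SEMA3A arrays of Gins1 lay below the control arrays, but the SEMA6A arrays held both the lowest and the highest value of all 12. Gins3, a dimmer gene, was at 362, 420 and 396 in the control group and 318, 347 and 363 with both factors, against 336, 240 and 218 with SEMA6A and 205, 271 and 388 with SEMA3A. Its SEMA6A arrays lay below the control arrays, and the third SEMA3A array lay within the control range. The interaction was 0.89 ± 0.31 for Gins3, 0.60 ± 0.20 for Gins2, 0.48 ± 0.28 [0.21] for Gins1, 0.36 ± 0.21 [0.19] for Cdc45 and 0.25 ± 0.19 for Gins4. The other passing probe set of Gins3 gave 0.15 and that of Gins1 -0.23. The Gins2 probe set is of a type that can match other transcripts.

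The primer-making enzyme had the largest interaction among the probe sets used, though not among all probe sets of the members. Pola1, the catalytic subunit of polymerase alpha, was at 2783, 2388 and 2353 in the control group and 2565, 2724 and 2624 with both factors, against 2292, 1452 and 1420 with SEMA6A and 1592, 2224 and 2136 with SEMA3A. Every SEMA6A and every SEMA3A array of Pola1 lay below every control array and below every array with both factors. As means these were 2508 ± 239, 1721 ± 494, 1984 ± 342 and 2638 ± 80.6 (SD, n = 3) for control, SEMA6A, SEMA3A and both. The log2 difference was -0.57 ± 0.17 for SEMA6A against control, -0.34 ± 0.17 for SEMA3A and 0.08 ± 0.17 for both, and the interaction was 0.99 ± 0.24 (limma, adjusted p = 0.197). Prim1, the catalytic primase subunit, was at 5712, 5708 and 6095 in the control group and 5707, 5832 and 6065 with both factors, against 6321, 3926 and 4631 with SEMA6A and 4578, 4827 and 6175 with SEMA3A. The first SEMA6A and the third SEMA3A arrays of Prim1 exceeded all 3 control arrays, and its interaction was 0.44 ± 0.20 [0.29]. Prim2, the large primase subunit, was at 1724, 1737 and 1662 in the control group and 1370, 1422 and 1501 with both factors, against 1645, 1247 and 1211 with SEMA6A and 1245, 1233 and 1466 with SEMA3A. In Prim2 all 3 other groups lay below the control arrays, the group with both factors included, where the difference was -0.23 ± 0.12. Its interaction was 0.47 ± 0.17, and that of Pola2, the regulatory subunit of polymerase alpha, 0.49 ± 0.25 [0.22].

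**Figure D4:**
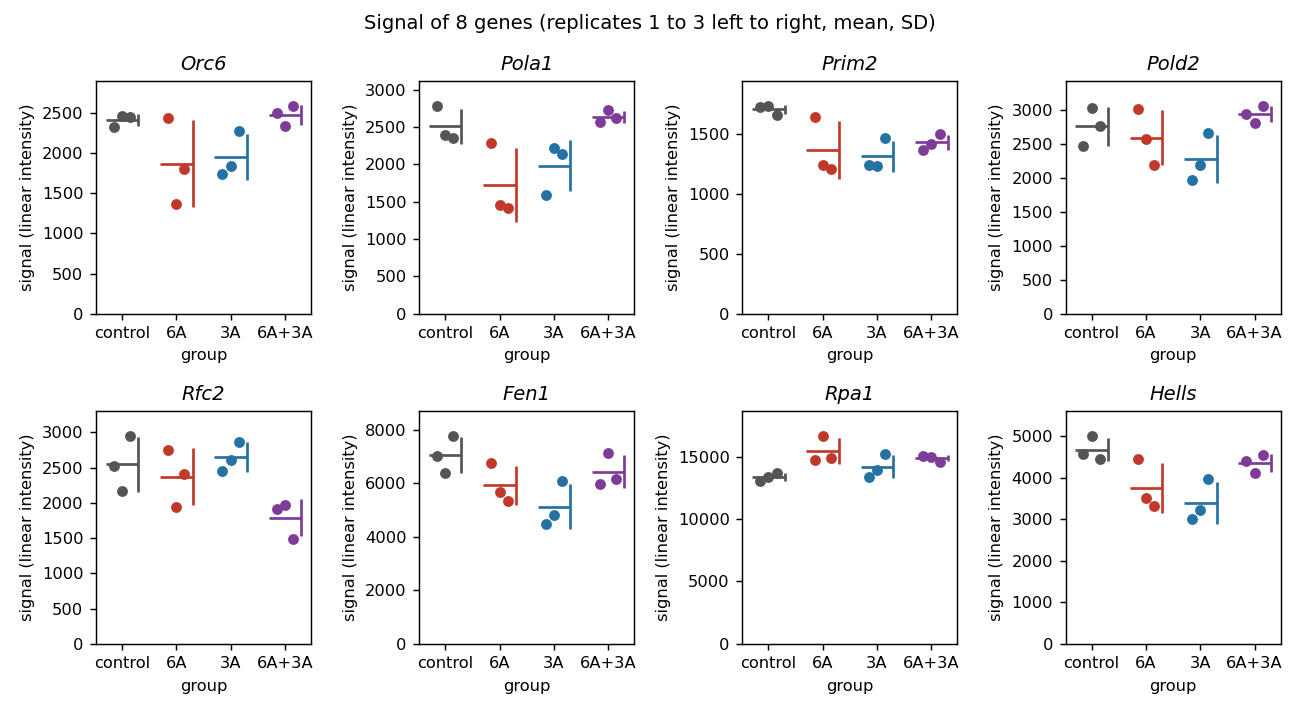
Deposited signal (vertical axes, linear intensity from 0) of 8 genes in the 4 groups (horizontal axes, with 6A for SEMA6A and 3A for SEMA3A). Points are arrays, replicates 1 to 3 from left to right, long lines are means and bars the SD. In Pola1 the 6 arrays with a single factor lie below the 6 others, and in Rfc2 the 3 arrays with both factors lie below the control and SEMA3A arrays.

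The polymerases that extend the primers showed less. Pold2, a subunit of polymerase delta that holds its catalytic part, was at 2474, 3039 and 2774 in the control group and 2952, 2817 and 3064 with both factors, against 3014, 2583 and 2197 with SEMA6A and 1976, 2192 and 2671 with SEMA3A. Its SEMA3A arrays lay below the arrays with both factors, a difference of 0.37 ± 0.13, and its interaction was 0.47 ± 0.18. Pold1, the catalytic subunit of polymerase delta, had an interaction of -0.01 ± 0.20 [0.18], Pole, that of polymerase epsilon, -0.14 ± 0.14, and Pole2, its partner subunit, 0.15 ± 0.19 [0.26]. Pcna, the sliding clamp, was at 26284, 25512 and 29931 in the control group and 28714, 28852 and 27291 with both factors, against 27782, 20688 and 25252 with SEMA6A and 26728, 28520 and 29463 with SEMA3A. Its interaction was 0.22 ± 0.11 [0.12], and its lowest signal was on the second SEMA6A array.

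The subunits of the clamp loader, which opens PCNA around DNA, lay on different sides of 0. Rfc2 was at 2520, 2170 and 2946 in the control group and 1917, 1969 and 1484 with both factors, against 2753, 1946 and 2413 with SEMA6A and 2447, 2613 and 2869 with SEMA3A. Its arrays with both factors lay below all control and SEMA3A arrays, with group means of 2545 ± 388, 2371 ± 405, 2643 ± 213 and 1790 ± 266 (SD, n = 3) in the order control, SEMA6A, SEMA3A, both. Rfc2 differed by -0.49 ± 0.15 for both against control and by -0.56 ± 0.15 for both against SEMA3A, and its interaction was -0.46 ± 0.21. That pattern belongs to 1 probe set: the other probe sets of Rfc2 had interactions of 0.34 and 0.12, differences of 0.07 and -0.10 for both against control, and 0.30 and 0.07 for both against SEMA3A. Rfc3 was at 2547, 2746 and 2841 in the control group and 2798, 2700 and 2856 with both factors, against 2838, 758 and 1971 with SEMA6A and 2429, 2404 and 3021 with SEMA3A. The value of 758 on the second SEMA6A array was the lowest of the 12. Its interaction, 0.84 ± 0.46 [0.30], had the largest standard error among the members. Rfc4, at 957 on the same array against 1828 to 2239 on the others, had 0.49 ± 0.31 [0.13]. Another probe set of Rfc4 gave -0.023. Rfc1, the large subunit, was at 0.22 ± 0.14 and Rfc5 at 0.26 ± 0.14 [0.15].

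The enzymes that finish the lagging strand had values on opposite sides of 0. Fen1, the nuclease that trims flaps, was at 7030, 6396 and 7772 in the control group and 5998, 7147 and 6170 with both factors, against 6766, 5663 and 5362 with SEMA6A and 4467, 4834 and 6089 with SEMA3A. All SEMA3A arrays of Fen1 lay below the control arrays, a difference of -0.48 ± 0.12, and its interaction was 0.58 ± 0.17. Lig1, the ligase that seals the strand, was at 4275, 4856 and 6396 in the control group and 4962, 4822 and 5942 with both factors, against 5951, 6983 and 6490 with SEMA6A and 5942, 6495 and 6144 with SEMA3A. Lig1 differed by 0.35 ± 0.13 for SEMA6A and 0.28 ± 0.13 for SEMA3A against control. The highest Lig1 signal with both factors equalled the lowest with SEMA3A after rounding, and after normalization these groups did not overlap. Its interaction was -0.60 ± 0.18, the lowest of the 43. Among the subunits of RPA, which coats bare strands, Rpa1 also stood on the other side. It was at 13043, 13397 and 13718 in the control group and 15048, 14948 and 14603 with both factors, against 14761, 16637 and 14900 with SEMA6A and 13401, 13934 and 15196 with SEMA3A. All SEMA6A arrays of Rpa1 and all arrays with both factors lay above the control arrays, by 0.19 ± 0.06 and 0.12 ± 0.06, and the interaction was -0.12 ± 0.09 [-0.064]. The other probe set of Rpa1 gave 0.03 for SEMA6A and -0.07 for both against control, with an interaction of -0.10. Rpa2 and Rpa3, the smaller subunits, had interactions of 0.22 ± 0.17 and 0.47 ± 0.21 [0.27]. The other passing probe set of Rpa2, a dimmer one, gave -1.182 for SEMA6A against control and an interaction of 1.251. That interaction was the largest among all passing probe sets of the members.

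Nucleotide synthesis genes had interactions above 0, apart from Tyms. Rrm2, the S phase subunit of ribonucleotide reductase, was at 17996, 18856 and 17931 in the control group and 18915, 17757 and 18627 with both factors, against 19356, 13047 and 14607 with SEMA6A and 13371, 14772 and 17151 with SEMA3A. Its SEMA3A arrays lay below the control arrays and below the arrays with both factors, and 2 of the 3 SEMA6A arrays did so too. Rrm1, the large subunit, was at 7684, 7442 and 8094 in the control group and 7791, 6960 and 7319 with both factors, against 7223, 6286 and 5772 with SEMA6A and 5700, 5972 and 7816 with SEMA3A. In Rrm1 the SEMA6A arrays lay below the control arrays, and the third SEMA3A array did not. The interaction was 0.55 ± 0.17 for Rrm2 and 0.46 ± 0.15 for Rrm1. Tk1, which salvages thymidine, was at 6365, 2720 and 4677 on the SEMA6A arrays and at 4673 or above on every other array, with an interaction of 0.57 ± 0.30 [0.24]. Dut, which removes dUTP, was also low on the second SEMA6A array, with an interaction of 0.48 ± 0.25 [0.23]. Tyms, which makes thymidylate, was dim, with signals of 86 to 144 over the 12 arrays, and had an interaction of -0.03 ± 0.26 [0.14] on this probe set and of 0.58 on another.

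Genes that copy chromatin and DNA methylation behind the fork include Hells, the member with the smallest p in the interaction. Hells, a chromatin remodeller needed for maintenance methylation, was at 4578, 5003 and 4461 in the control group and 4397, 4119 and 4560 with both factors, against 4448, 3516 and 3318 with SEMA6A and 3010, 3212 and 3974 with SEMA3A. All SEMA6A and all SEMA3A arrays of Hells lay below the control arrays, and all SEMA3A arrays lay below those with both factors. The means were 4681 ± 285, 3761 ± 604, 3399 ± 509 and 4359 ± 223 (SD, n = 3) for control, SEMA6A, SEMA3A and both. The interaction was 0.69 ± 0.16 (limma, adjusted p = 0.197), with differences of -0.33 ± 0.12 for SEMA6A and -0.46 ± 0.12 for SEMA3A against control. Dnmt1, the maintenance methyltransferase, was at 6966, 6754 and 7310 in the control group and 6863, 6651 and 7280 with both factors, against 7086, 7155 and 6509 with SEMA6A and 6397, 6752 and 7327 with SEMA3A. The groups of Dnmt1 overlapped and its interaction was 0.05 ± 0.10. Uhrf1, which guides DNMT1 to hemimethylated DNA, was at 0.28 ± 0.14, with SEMA3A arrays of 4734, 4905 and 6092 against 6548, 6017 and 6153 with both factors. Chaf1b, a subunit of the histone chaperone CAF-1, was at 0.33 ± 0.17, and at -0.22 on a dim second probe set.

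Against the control, SEMA6A arrays had lower signals for 36 of 43 members, against 46.6% of all genes, with a median difference of -0.26 against 0.02. The range ran from -0.74 [-0.20] for Rfc3 to 0.35 for Lig1. At an unadjusted p under 0.05, 11 were lower (Cdc6, Chaf1b, Gins2, Gins3, Hells, Orc6, Pola1, Prim2, Rfc3, Rpa3 and Rrm1), against 3.93% of all genes, and 2 were higher (Lig1 and Rpa1), against 6.5%. The 7 with a difference above 0, against 53.4%, were Dbf4, Lig1, Orc5, Pold1, Pole, Pole2 and Rpa1. The arrays did not overlap for 5 lower members (Gins3, Hells, Pola1, Prim2 and Rrm1), against 4.76%, and for 1 higher, against 7.35%. The margin was narrow in Hells and Prim2. As log2 level minus the gene's mean, the first SEMA6A array and the lowest control array were at 0.1372 and 0.1377 in Hells. In Prim2 they were at 0.194 and 0.203, and the gaps were wider in Gins3, Pola1 and Rrm1. The smallest adjusted p was 0.476. Without the first SEMA6A array 27 members were lower at an unadjusted p under 0.05, against 12.1% of all genes in that fit. There 12 passed the adjusted threshold (4.47% of all genes). Without the second and the third array of that group 3 and 2 were lower, against 2.06% and 3.56%. Without each control array in turn 6, 5 and 3 were lower, against 2.41%, 2.82% and 1.92%. The median without the second SEMA6A array was -0.11. With array weights 22 were lower, against 9.24% of all genes, and 7 with only the arrays compared, against 2.44%.

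SEMA3A was set against the same control arrays. With SEMA3A 37 of 43 members had lower signals, against 48.3% of all genes, and 6 were higher, against 51.7%, with a median of -0.18 against 0.01 and a range from -0.50 for Cdc6 to 0.28 for Lig1. At an unadjusted p under 0.05, 9 were lower (Cdc6, Fen1, Gins3, Hells, Prim2, Rfc5, Rrm1, Rrm2 and Uhrf1), against 3.86%, and 1, Lig1, was higher, against 4.87%. The arrays did not overlap for 10 lower members, against 7.3%, and for 0 higher, against 9.92%. Those 10 were Cdc6, Chaf1b, Fen1, Gins1, Hells, Orc6, Pola1, Prim2, Rfc5 and Rrm2. The smallest adjusted p was 0.551. Without the third SEMA3A array 15 were lower at an unadjusted p under 0.05, against 7.61% of all genes in that fit. Without the first and the second 3 and 4 were lower, against 1.53% and 2.15%. Without either of the second and the third control array 5 were lower, against 2.17% and 2.91%. Array weights gave 19, against 9.01%, and a prior without trend 5, against 3.36%. The median was -0.27 without the third and -0.11 without the first SEMA3A array.

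With both factors the replication genes were near the control level. The median difference was -0.02 against 0.01 over all genes, with 25 of 43 below 0, against 46.6%, and 18 above, against 53.4%. At an unadjusted p under 0.05 only Rfc2 was lower, against 1.54% of all genes, and 0 were higher, against 2.58%. The arrays did not overlap for 7 lower members (Cdc45, Cdc6, Chaf1b, Prim2, Rfc2, Rfc5 and Rpa2), against 6.53%, and for 4 higher (Pole2, Rfc1, Rfc4 and Rpa1), against 8.54%. The range ran from -0.49 for Rfc2 to 0.23 for Pole2, and each adjusted p was 1. The count of 1 lower member became 2 without the first or the second SEMA6A array, against 1.8% and 2.85% of all genes in those fits. It became 4 with only the arrays compared, against 3.88%, and 6 with array weights, against 5.05%.

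Set against SEMA3A alone, both factors gave higher signals for 37 of 43 members, against 51.3% of all genes, and lower for 6, against 48.7%, with a median of 0.15 against 0.01. At an unadjusted p under 0.05, 6 were higher (Fen1, Hells, Pola1, Pold2, Rrm2 and Uhrf1), against 5.84%, and Rfc2 was lower, against 5.4%. The arrays did not overlap for 7 higher members (Hells, Orc6, Pola1, Pola2, Pold2, Rrm2 and Uhrf1), against 10.3%, and for 3 lower (Lig1, Rfc2 and Tyms), against 10.8%. The smallest adjusted p was 0.397. Without the third SEMA3A array 15 were higher, against 9.64% of all genes in that fit, and the median was 0.23. Without the first 1 was higher, against 3.21%, and the median was 0.08. Without the second 3 were higher, against 3.68%. With array weights 15 were higher, against 12.6%, and 2, Hells and Rfc2, passed the adjusted threshold (2.69% of all genes).

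Against SEMA6A alone, both factors gave higher signals for 34 of 43 members, against 49.8% of all genes, and lower for 9, against 50.2%, with a median of 0.19 against -0.00. At an unadjusted p under 0.05, 6 were higher (Gins2, Orc6, Pcna, Pola1, Rfc3 and Rpa3), against 5.21%, and 2 were lower (Lig1 and Rfc2), against 6.3%. The arrays did not overlap for 3 higher members (Pcna, Pola1 and Rfc1), against 6.74%, and for 1 lower, Lig1, against 7.3%, and the share of higher members (6.98%) is near the background. The smallest adjusted p was 0.425. Without the first SEMA6A array 24 were higher, against 12.2% of all genes in that fit, and 5 passed the adjusted threshold (3.38% of all genes). Without the second 1 was higher, against 3.22%, and the median was 0.08. Without the first or the third array with both factors 2 and 1 were higher, against 2.84% and 3.68%. Array weights gave 17, against 11.4%, and only the arrays compared 3, against 3.16%.

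**Figure D5:**
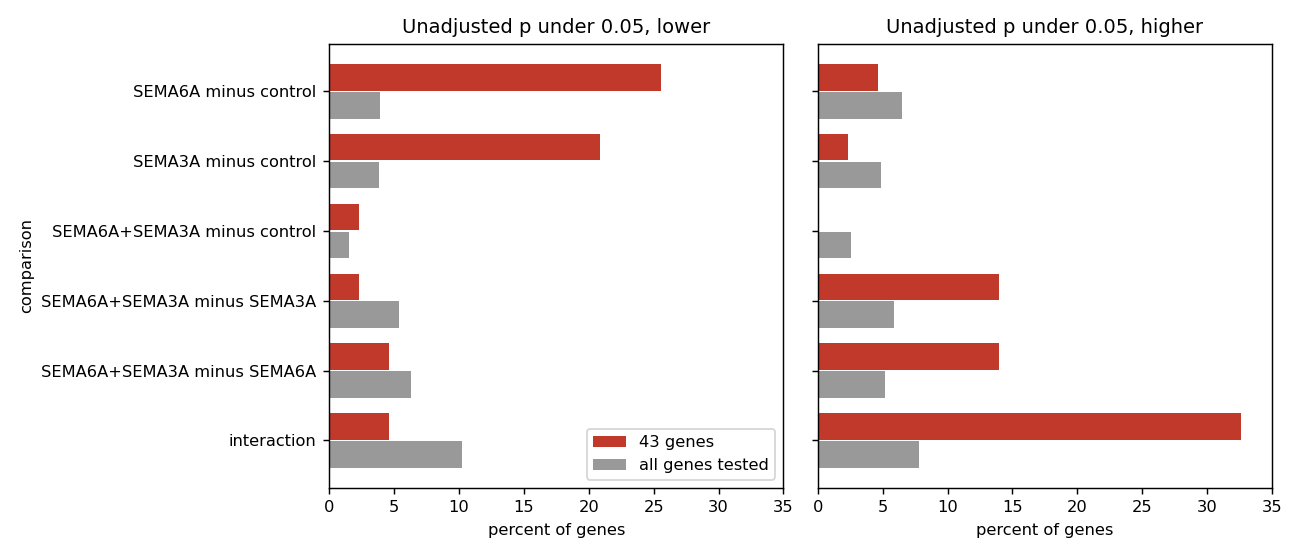
Percent of genes (horizontal axes) at an unadjusted p under 0.05 in the lower and the higher direction in the 6 comparisons (vertical axis), for the 43 genes and for all genes tested. The widest gaps are the lower members in SEMA6A minus control (25.6% against 3.93%) and SEMA3A minus control (20.9% against 3.86%) and those above 0 in the interaction (32.6% against 7.82%).

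Most members have more than 1 probe set, which gives a partial check of the values. Of 90 probe sets that name a member, 81 passed the filter, and 28 members had several that did. In the interaction all passing probe sets of a gene lay on the same side of 0 for 20 of these 28, against 18 in SEMA6A against control, 21 in SEMA3A against control and 11 with both. The 3 probe sets of Hells gave interactions of 0.69, 0.53 and 0.64, and the 3 of Rrm2 gave 0.55, 0.42 and 0.77. Fen1 gave 0.58 and 0.66, Rrm1 0.46 and 0.76, and Uhrf1 0.28 and 0.75. The 8 genes with probe sets on both sides of 0 were Chaf1b, Dnmt1, Gins1, Orc3, Prim1, Rfc2, Rfc4 and Tyms. Among them Prim1 gave 0.44 and -0.28, Dnmt1 0.048, -0.030 and 0.13, and Orc3 -0.035, 0.31 and -0.51. Probe sets of the kind used for Fen1, Pold1 and Rrm2 may cross-hybridise. The 13 members with E2F-type letters in a promoter had a median interaction of 0.28, with 10 above 0, and the 24 others that had a promoter and a value had 0.41, with 20 above 0.

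Further genes of the pathway, in 4 lists, had medians on the same side of 0 as the members, with 2 of 11, 4 of 27, 6 of 25 and 6 of 18 genes below 0 in the interaction. The first list, of 11 genes, holds the Mcm genes with Mcmbp and Gmnn. Of these 0 passed the adjusted threshold, 6 were above 0 in the interaction at an unadjusted p under 0.05 and 0 below. Their median was 0.44, and all genes have 7.82% above and 10.2% below. Of 27 fork and checkpoint genes tested these counts were 0, 6 and 0, with a median of 0.24. Of 25 further nucleotide synthesis genes they were 0, 8 and 3, with a median of 0.30, and of 18 E2F and S phase cyclin genes 0, 3 and 0, with a median of 0.21. In SEMA6A against control the medians of the 4 lists were -0.20, -0.10, -0.13 and -0.08, and in SEMA3A against control -0.22, -0.16, -0.18 and -0.12, in the same order. Mcm6 and Ccne2, picked after their values were seen, show the spread within the lists. Mcm6, a helicase subunit, differed by 0.61 ± 0.13 for SEMA3A and 0.67 ± 0.13 for both factors against control (limma, adjusted p = 0.551 and 0.311). Ccne2, a cyclin E gene, had an interaction of 1.33 ± 0.27 (limma, adjusted p = 0.197).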

How the data were processed

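Each deposited value is a linear intensity of a probe set. Per the submitters' processing notes MAS5 made it (version not given in the sources used here), and 6 µg of RNA went to an array per the labels. The authors' intensities had a mean of 500 on every array after trimming 2% at each end. Of 45037 probe sets besides 64 controls, 34945 named 1 gene in the platform annotation, 932 several and 9160 were not listed there.

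The members, their roles and the further lists were chosen with earlier results of these data known. Signals were taken as log2(signal + 16), which understates changes of dim genes, and quantile normalized, because the ratio of the highest to the lowest array median, 1.26, exceeded 1.25. Probe sets above their array's median on at least 3 arrays were kept (24366), and the one with the highest mean stood for its gene. These 11325 genes went into a limma fit (version 3.58.1, R 4.3.3) of group means on the 12 arrays, with a trended prior (8 residual and 5.12 prior degrees of freedom) and Benjamini-Hochberg adjustment over all genes at 0.05. The median standard error was 0.153, and having 3 arrays a group limits precision. The fit was tested on simulated data. Arrays of 2 groups do not overlap where all normalized values of one lie beyond those of the other.

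Values on every array are given for the 3 members with the smallest p in each comparison and the brightest of each role. Those of Cdc6, Gins3, Lig1, Rfc3 and Rrm1, and the group values of Orc5, Tk1 and Uhrf1, were added after they were seen. Alternatives changed the pseudocount (1 or 64), the filter (none, or the 75th percentile) and the probe set, or dropped the quantile step, the prior trend, the groups not compared or each array in turn. Others added array weights or a replicate block. Promoter sequences are RefSeq's (GRCm38.p6), read with Python 3.11.15.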

Additional observations from a re-analysis of the deposited data

Results flagged for a closer look

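In Pola1, every array of the SEMA6A group lay below every control array, while every array with both factors lay above every array with SEMA3A alone, so the effect of SEMA6A had opposite directions without and with SEMA3A. The interaction was 0.99 on the log2 scale. The same holds for the effect of SEMA3A on Pola1 without and with SEMA6A, again with an interaction of 0.99. In Hells the effect of SEMA6A likewise had opposite directions without and with SEMA3A, with an interaction of 0.69. There the separation from the control was narrow, with the first SEMA6A array at 4448 and the lowest control array at 4461. Over all genes, 4.76% had SEMA6A arrays wholly below the control arrays. Arrays with both factors lay wholly above those with SEMA3A alone for 10.3%. The limma interaction test did not pass for either gene (adjusted p = 0.197 each). With 3 arrays a group, no array was tested as an outlier within its group.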

How the results depend on the processing

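Of 138 medians under alternatives, 136 kept the sign, and of 418 values of named members, 398 kept direction and side of the threshold, 14 came past it and 6 turned. Those 6 came from other probe sets: for both factors against control Prim2 was at 0.037, Rfc2 at 0.066 and Rpa1 at -0.072, for both against SEMA3A Rfc2 was at 0.30 and 0.067, and for both against SEMA6A Rfc2 was at 0.11. The cause was not tested.

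Counts at an unadjusted p under 0.05 moved as follows. With every probe set counted (81 in all) they were 19 lower for SEMA6A, 16 lower for SEMA3A, 2 lower for both against control and 10 higher for both against SEMA3A. Over all probe sets the shares were 4.7%, 4.39%, 2.83% and 6.03%. With array weights they were 22, 19, 6 and 15, and 17 for both against SEMA6A and 27 for the interaction. All genes had 9.24%, 9.01%, 5.05%, 12.6%, 11.4% and 15.2% there, in the same order. With these weights 2 and 17 members passed the adjusted threshold in both against SEMA3A and in the interaction, against 2.69% and 14% of all genes. With only the arrays compared they were 7 for SEMA6A, 4 for both against control and 3 for both against SEMA6A, against 2.44%, 3.88% and 3.16%. No prior trend gave 5 for SEMA3A (3.36% of all genes), and choosing probe sets by interquartile range 2 for both against control (2.92%).

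Leaving out 1 array gave medians of -0.34 to -0.11 for SEMA6A, -0.27 to -0.11 for SEMA3A, -0.04 to 0.01 for both against control, 0.08 to 0.23 for both against SEMA3A, 0.08 to 0.28 for both against SEMA6A and 0.24 to 0.54 for the interaction. The counts, in that order, were 2 to 27, 3 to 15, 1 to 2, 1 to 15, 1 to 24 and 10 to 27. The shares over all genes moved too, from 1.92% to 12.1%, 1.53% to 7.61%, 0.914% to 2.85%, 3.21% to 9.64%, 2.84% to 12.2% and 4.87% to 13.9%. From 0 to 12 members passed the adjusted threshold for SEMA6A, 0 to 5 for both against SEMA6A, 0 to 19 for the interaction and 0 in the other 3 comparisons. The highest counts went with 4.47%, 3.38% and 11.4% of all genes.

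With a replicate block, 0 members passed in each comparison, and the interaction count was 12, against 6.69% of all genes. Arrays with the same number correlated at -0.36 to 0.14 (median -0.08, 18 pairs), against -0.23 to 0.42 (median 0.02) over 36 other pairs. The highest was that of the first SEMA6A and the third SEMA3A array. Next were the second SEMA6A and the first SEMA3A array, at 0.33, and the third SEMA6A and the second SEMA3A array, at 0.27. Correlations within groups of 3 cannot decide whether arrays with the same number were handled together, and the labels do not say.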
